A study of Arabidopsis thaliana with 9 samples.

Results

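Cytokinins are plant hormones that promote cell division and help to maintain the stem cells of the shoot apical meristem, the dividing tissue from which leaves and later flowers arise. The hormone is bound by membrane histidine kinases, among them AHK4, and the signal passes through histidine phosphotransfer proteins to response regulators in the nucleus. Type-B response regulators are transcription factors that activate cytokinin target genes. Type-A response regulators are encoded by rapidly induced targets of the pathway, and most of them dampen the response. LOG enzymes release active cytokinin from its nucleotide precursor, and cytokinin oxidases/dehydrogenases (CKX) break cytokinin down.

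With earlier results of these data known, the 10 genes described here were chosen by locus from the 23338 loci of the deposited count table. They were not chosen by a cut on their values. They are the receptor gene AHK4 (AT2G01830), the type-A response regulator genes ARR4 (AT1G10470), ARR5 (AT3G48100), ARR6 (AT5G62920), ARR7 (AT1G19050), ARR9 (AT3G57040) and ARR15 (AT1G74890), the activation genes LOG4 (AT3G53450) and LOG7 (AT5G06300), and the degradation gene CKX3 (AT5G56970). Of these, 7 passed the filter on low counts and were tested, while ARR5, ARR15 and LOG4 had too few reads. They were measured by sequencing amplified RNA from shoot apical meristems cut out by laser dissection (Arabidopsis thaliana, Col-0). All plants had stood in short days, with 8 h of light and 16 h of darkness. Libraries were made before induction (LD0), after 1 long day (LD1) and after 3 long days (LD3), a long day having 16 h of light and 8 h of darkness, and the series followed the meristem from the vegetative to the transition stage. There are 3 libraries per time point, A, B and C. Per the labels, the first pair were made by whole-transcriptome shotgun and the C libraries as ready-to-run libraries. The labels do not say whether the letters stand for separate plants or dissections, so the p-values reflect only how far the libraries of a time point spread, which can be technical. In bulk samples such as these, fewer cells of a type and less RNA per cell cannot be told apart.

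Depth differed widely between the libraries. Totals lay between 97153 and 11145220 reads, and the A libraries held 102019 to 124360. The floor of 3 reads corresponded to between 0.320 CPM in LD3 C and 26.3 CPM in LD0 B, where CPM is the number of reads per 1000000 of the library total scaled by its TMM factor. All 7 meristem markers (STM, KNAT1, KNAT2, KNAT6, CLV1, CLV3 and WUS) had reads at each time point, although WUS had reads in only 5 of the 9 libraries. Summed meristem markers reached 464 to 692 CPM at LD0, 705 to 789 at LD1 and 443 to 665 at LD3. Genes of leaf mesophyll summed to between 121 and 1335 CPM, and genes of the vasculature to between 0 and 697 CPM. XCP1 had no reads at LD1 or LD3, and IRX3 none at LD1. LD1 C held reads of 9909 loci against 15315 in LD1 B at nearly the same total.

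Among the 10 genes, ARR4 was higher in every long-day library than in any LD0 library, and CKX3 was so at LD3, there by the margin of a single read, while its LD1 libraries overlapped LD0. Of all tested genes, 4.44% had all LD1 libraries above all LD0 libraries, and 8.12% had all LD3 libraries above them. CKX3 had a mean of 2.47 CPM at LD0, where only LD0 C held reads of it, and 49.6 CPM at LD3. ARR4 had a mean of 58.0 CPM at LD0 and 184 CPM at LD1. Neither difference passed edgeR's quasi-likelihood test after Benjamini-Hochberg adjustment over all 9300 tested genes, and none of the 7 tested genes did in any pairwise comparison. The test called 0% of all genes in LD1 against LD0, 0% in LD3 against LD0 and 0% in LD3 against LD1. A joint test for any change over the 3 time points called 1 gene, or 0.0108%, which was not among the 10.

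At an unadjusted p under 0.05 that same test gave 592, 737 and 379 genes in these 3 comparisons and 534 in the joint test. Other tools gave other adjusted counts. DESeq2 called 30, 296 and 6 genes and 36 jointly, and limma-voom called 0, 508 and 0 and 65 jointly. With the library letter as a replicate block the counts were 0, 2 and 0, and 2 jointly. For the cytokinin genes, DESeq2 and the block also called 0, and limma-voom called CKX3 in LD3 against LD0. The LD1 and LD3 comparisons with LD0 share the LD0 libraries, so their values are given side by side.

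**Figure D1:**
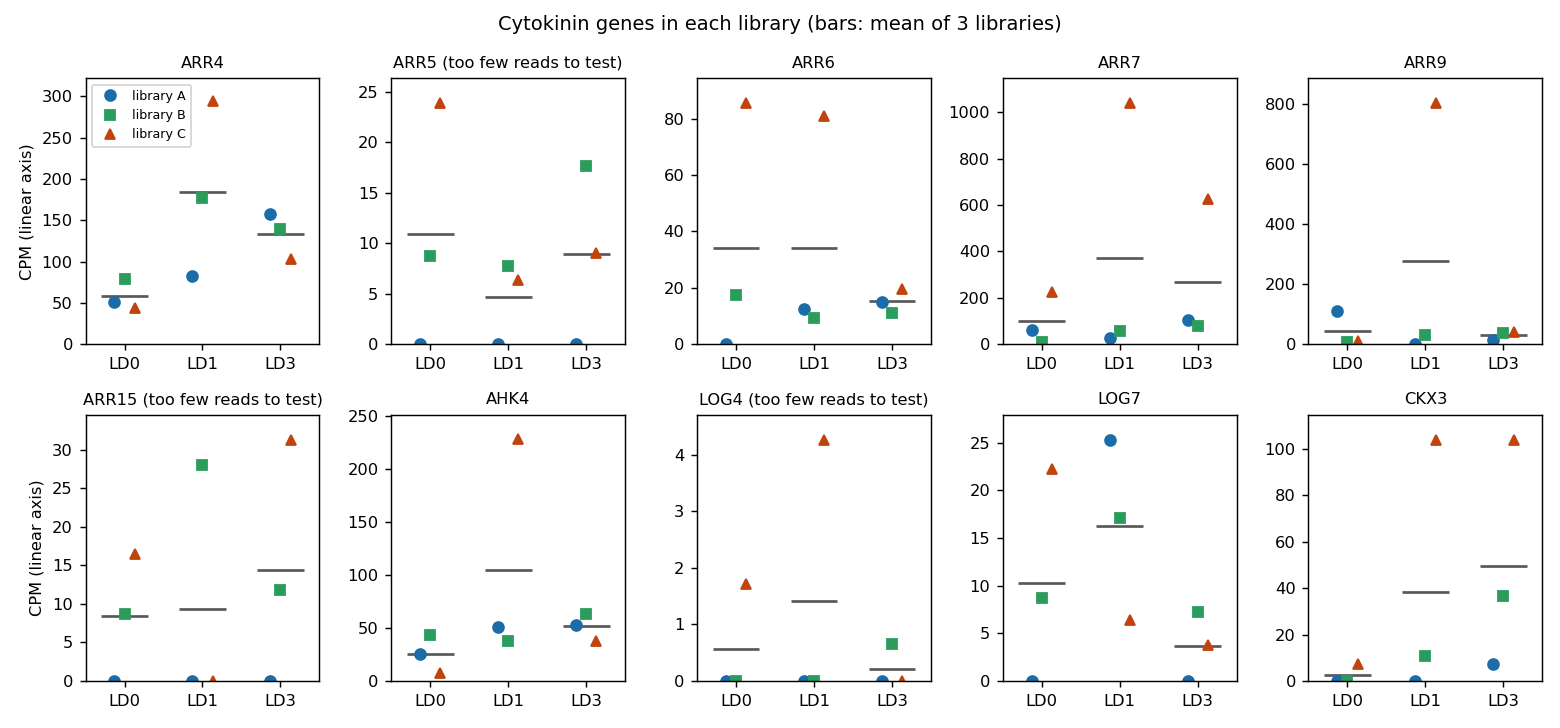
CPM (vertical axes, linear, a scale of its own in each panel) of the 10 genes in each library at LD0, LD1 and LD3, with circles for A, squares for B, triangles for C and a bar at the mean of 3 libraries. ARR4 lies above its LD0 range in all 6 long-day libraries, CKX3 is highest in the C libraries, and the ARR7 and ARR9 means at LD1 follow 1 high point, LD1 C.

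CKX3 encodes a cytokinin oxidase/dehydrogenase, an enzyme that degrades the hormone. It had 0, 0 and 13 reads in LD0 A, B and C, 0, 7 and 49 in LD1, and 1, 56 and 979 in LD3. As CPM these are 0, 0 and 7.41 at LD0, 0, 10.9 and 104 at LD1, and 7.51, 36.7 and 104 at LD3. All LD3 libraries thus lay above all LD0 libraries, but by a narrow margin, because LD3 A, with its single read at 7.51 CPM, stood just above LD0 C at 7.41 CPM. In LD0 A and LD0 B a single read is worth 8.45 and 8.75 CPM. Their 0 reads therefore do not exclude a level like that of LD3 A. LD1 overlapped LD0, since LD1 A and 2 of the LD0 libraries were at 0 reads.

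The group means of CKX3 were 2.47 ± 4.28 CPM at LD0, 38.4 ± 57.4 at LD1 and 49.6 ± 49.7 at LD3 (SD, n = 3 each). The fitted log2 fold change was 3.56 (SE 1.58) for LD1 against LD0, with an unadjusted p of 0.0447 and an edgeR adjusted p of 0.772. For LD3 against LD0 it was 4.75 (SE 1.62), with an unadjusted p of 0.0133 and an adjusted p of 0.560. Between the long-day time points it was 1.19 (SE 1.16; edgeR adjusted p 0.973), so LD3 and LD1 differed by about the size of the error. Jointly over the 3 time points CKX3 had an unadjusted p of 0.0404 and an edgeR adjusted p of 0.824, where 5.74% of all genes had an unadjusted p under 0.05.

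Without the fit, the reads pooled over each group gave CKX3 a ratio of 6.65 (95% exact counting interval 3.59 to 13.3) for LD1 over LD0 and 15.2 (8.85 to 28.6) for LD3 over LD0. These intervals cover counting error only, and the deepest library of a group, C, weighs most in them. The authors' deposited table gave CKX3 log2 fold changes of 3.08 (unadjusted p 0.0553) for LD1 against LD0 and 3.71 (unadjusted p 0.0210) for LD3 against LD0.

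For LD3 against LD0 the log2 fold change of CKX3 lay between 3.42 and 7.98 in the 17 alternative settings that tested it, with an unadjusted p from 0.00125 to 0.0680 and under 0.05 in 14 of them. The adjusted p passed the threshold in 1 of them, limma-voom, at 0.0381. The filter dropped CKX3 with a single read column per library and in libraries A and B alone, so neither gave a fitted value. The unadjusted p was 0.0680 without LD0 C, 0.0594 without LD3 B and 0.0550 without a term for library preparation. For LD1 against LD0 the unadjusted p was under 0.05 in 7 of 17 settings, and leaving out LD1 C gave 2.54 with an unadjusted p of 0.215.

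The CKX3 reads of the C libraries were split unevenly between the read columns. A library with paired columns holds a count for read 1 and a count for read 2, and these were summed. In LD1 C read 2 supplied 43 of 49 CKX3 reads, or 87.8% (95% Wilson interval 75.8 to 94.3%), where it supplied 52.2% of that library. In LD3 C it supplied 689 of 979, or 70.4% (67.4 to 73.2%), against 49.4% of the library. Of the loci with at least 100 reads, 0% of 1410 in LD1 C and 0.384% of 8335 in LD3 C had a read 2 share at or above that of CKX3. Per the file headers, both columns of LD1 C were matched with the newer BLASTN release, whereas in LD3 C read 1 was matched with the newer and read 2 with the older.

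LD3 B did not show this excess, with read 2 supplying 35 of 56 CKX3 reads, or 62.5% (49.4 to 74.0%), where the library stood at 69.8%. Counted per 1000000 reads of its own column, CKX3 was at 17.6 in read 1 and 115 in read 2 of LD1 C, and at 51.5 and 125 in LD3 C. In LD0 C the corresponding values were 5.35 and 6.57. In the read 1 column alone, LD3 C therefore exceeded LD0 C as LD3 B did at 53.6, while LD1 C stood much nearer to LD0 C than its summed count does. With a single read column per library the pooled ratios of CKX3 became 2.77 for LD1 over LD0 and 10.6 for LD3 over LD0. The part of the read split in the CKX3 differences was not tested beyond this.

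**Figure D2:**
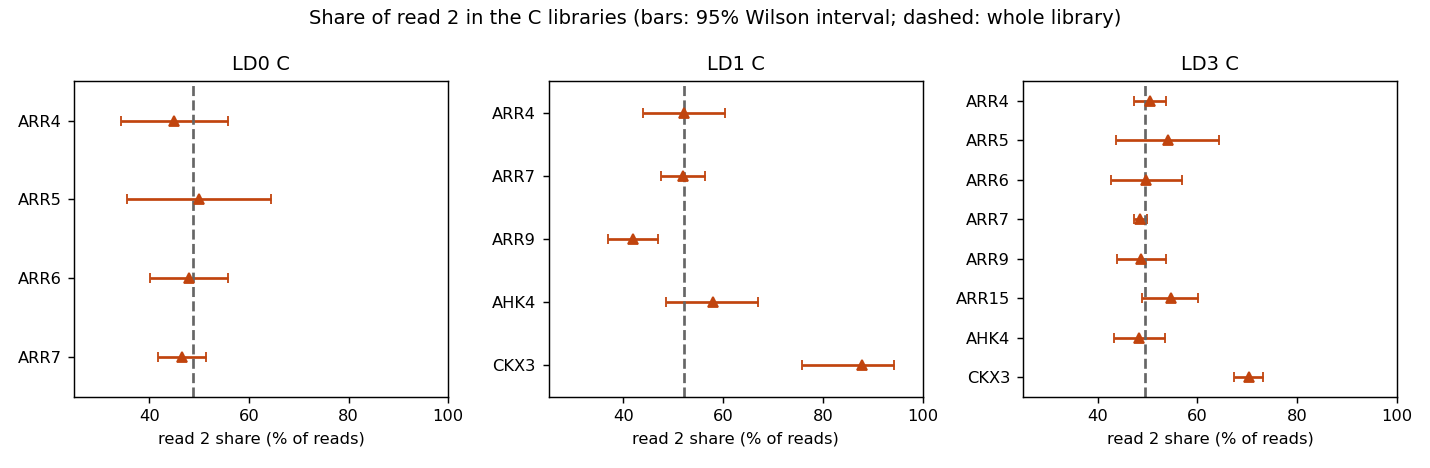
Share of reads that came from read 2 (horizontal axis, percent, starting at 25) for each of the 10 genes with at least 40 reads in the C library of each time point, with 95% Wilson intervals and the whole library as a dashed line. CKX3 lies at 87.8% in LD1 C and 70.4% in LD3 C, right of the library line, and ARR9 at 41.9% in LD1 C lies left of it.

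ARR4 encodes a type-A response regulator that is also known to bind the photoreceptor phytochrome B. At LD0 its CPM were 50.7, 78.8 and 44.4 for A, B and C, from 6, 9 and 78 reads. At LD1 they were 82.1, 177 and 294, from 13, 114 and 138 reads, and at LD3 158, 139 and 103, from 21, 212 and 964 reads. Every long-day library was above every LD0 library, with LD1 A at 82.1 CPM closest to the highest LD0 value, 78.8 CPM in LD0 B. That margin is smaller than a single read, which is worth 6.32 CPM in LD1 A and 8.75 CPM in LD0 B.

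Within the letters, the LD1 to LD0 ratio of ARR4 was 1.62 for A, 2.25 for B and 6.61 for C, and the LD3 to LD0 ratio was 3.11, 1.76 and 2.32. Higher long-day values were thus found in both kinds of preparation. Means were 58.0 ± 18.3 CPM at LD0, 184 ± 106 at LD1 and 133 ± 27.9 at LD3 (SD, n = 3 each). The log2 fold change was 1.65 (SE 0.75) for LD1 against LD0, with an unadjusted p of 0.0487 and an edgeR adjusted p of 0.772. For LD3 against LD0 it was 1.18 (SE 0.73), with an unadjusted p of 0.133 and an edgeR adjusted p of 0.760, and for LD3 against LD1 it was −0.47 (SE 0.72; edgeR adjusted p 0.982).

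The LD1 difference of ARR4 kept its sign in 19 of 19 alternative settings, with log2 fold changes from 0.79 to 2.09, and had an unadjusted p under 0.05 in 5 of them. These settings reuse the same libraries, whose LD1 values all lay above LD0, so the kept sign is not separate support. The LD1 difference was 0.97 (unadjusted p 0.205) without LD1 C and 0.79 (unadjusted p 0.253) in libraries A and B alone. For LD3 against LD0 it was 0.92 in libraries A and B alone. The authors' deposited table gave 1.64 (unadjusted p 0.287) and 1.25 (unadjusted p 0.417) for ARR4 in these comparisons.

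Among the 7 tested genes, those with an unadjusted p under 0.05 and a higher later value were ARR4 and CKX3 in LD1 against LD0 and CKX3 in LD3 against LD0, and none had a lower one. The count for LD1 against LD0 depended on the setting. It was 0 under the replicate block (unadjusted p 0.0674 for ARR4 and 0.0518 for CKX3), with no preparation term, with no filter, in libraries A and B alone, and on leaving out LD1 C, LD1 B, LD0 C, LD3 B or LD3 A, and it was 5 with limma-voom. For LD3 against LD0 limma-voom gave 3. In libraries A and B alone only 2 of the genes were tested, without CKX3, and in the other settings named 6 to 10 were. Over all 9300 genes, 3.28% were higher in LD1 and 2.69% higher in LD3 at an unadjusted p under 0.05. Between LD3 and LD1 the count was 0 of 7, where 4.08% of all genes passed in either direction. Of the 10, ARR4 alone had all LD1 libraries above all LD0 libraries, as did 4.44% of all tested genes. ARR4 and CKX3 had all LD3 libraries above all LD0 libraries, as did 8.12%. None had all LD3 libraries above all LD1 libraries, where 7.42% of all genes did.

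Log2 fold changes of the 7 tested genes were positive for 6 and negative for 1 in LD1 against LD0, with a median of 1.07. They were positive for 4 and negative for 3 in LD3 against LD0 (median 1.08), and positive for 2 and negative for 5 in LD3 against LD1 (median −0.50). The median over all genes was −0.06, 0.09 and 0.08 in these comparisons. It moved to −0.14, −0.18 and −0.11 with RLE scaling and to −0.11, 0.30 and 0.33 with upper-quartile scaling. Relative to that median, CKX3 in LD3 against LD0 was at 4.66 with TMM, 4.70 with RLE and 4.73 with upper-quartile scaling.

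**Figure D3:**
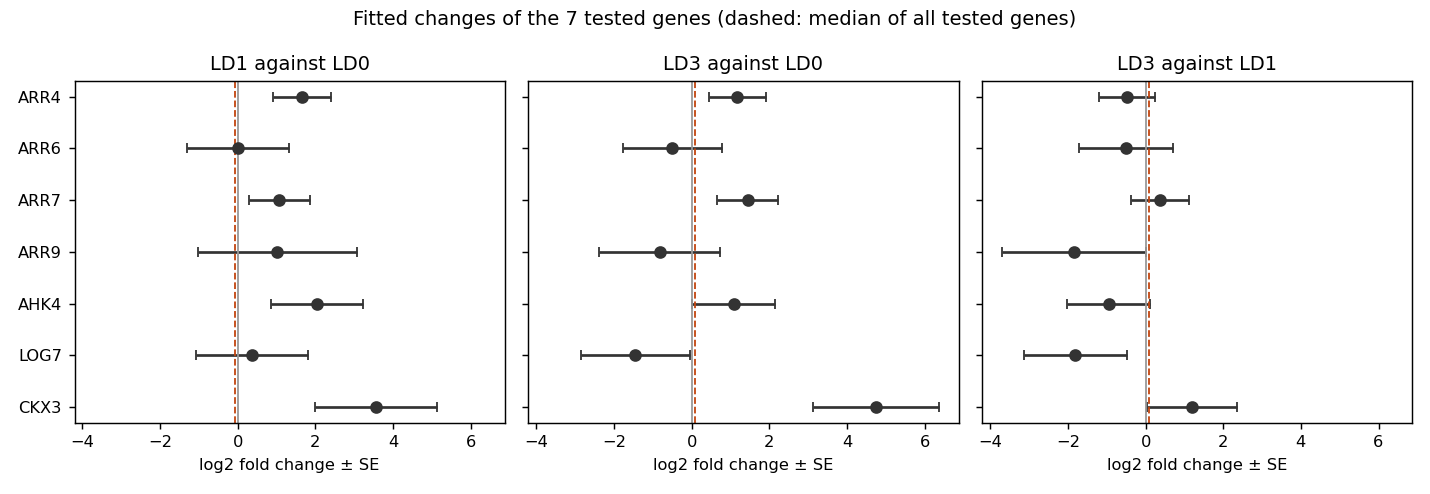
Fitted log2 fold changes ± SE (horizontal axes) of the 7 tested genes in the 3 pairwise comparisons, with a solid line at 0 and a dashed line at the median of all 9300 tested genes. CKX3 lies farthest right at 3.56 and 4.75 against LD0, and the errors of ARR6, ARR9 and LOG7 against LD0 span or nearly reach 0.

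The seed storage and late-embryogenesis genes, markers of a tissue outside the meristem, summed to less at LD3 than at LD0, while LD1 overlapped LD0. All 13 genes of that list had reads at each time point, and summed to 16012 to 89140 CPM at LD0, 1529 to 46942 at LD1 and 889 to 3841 at LD3. Of the 13, 2 were lower in LD1 than in LD0 and 12 lower in LD3 than in LD0 at an unadjusted p under 0.05. Of all 9300 tested genes, 287 and 487 were lower by that criterion. The seed sums of LD0 A, B and C were 70019, 16012 and 89140 CPM. Beside these, CKX3 had 0, 0 and 13 reads, where a single read in LD0 A and B is worth 8.45 and 8.75 CPM. ARR4 stood at 50.7, 78.8 and 44.4 CPM, from 6, 9 and 78 reads. The part of the seed transcripts in the values of the cytokinin genes was not tested.

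AHK4, also named CRE1 or WOL, is a cytokinin receptor. Its CPM were 25.3, 43.8 and 7.41 at LD0, 50.5, 37.3 and 228 at LD1, and 52.6, 63.6 and 38.0 at LD3, from 3 to 356 reads. A single library, LD1 C, stood far above the others, and the groups overlapped in each comparison. Means were 25.5 ± 18.2, 105 ± 106 and 51.4 ± 12.9 CPM (SD, n = 3 each). The log2 fold change was 2.04 (SE 1.19; edgeR adjusted p 0.811) for LD1 against LD0 and it was 0.60 without LD1 C and 0.86 without LD0 C. For LD3 against LD0 it was 1.08 (SE 1.07; edgeR adjusted p 0.872), with LD3 above LD0 in 3 of 3 letters, and it was 0.30 without LD0 C and 1.95 without LD0 B. The LD3 to LD1 value of −0.95 (SE 1.07; edgeR adjusted p 0.973) became 0.74 without LD1 C.

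ARR7 encodes a type-A response regulator whose gene is known as a direct target of WUS, the regulator of the meristem's stem cells. Its CPM were 59.1, 8.75 and 226 at LD0, 25.3, 56.0 and 1039 at LD1, and 105, 78.1 and 624 at LD3. Most of its 6910 reads came from LD3 C, which held 5844. The C library was the highest of its time point at all 3 time points, and the groups overlapped. Means were 98.0 ± 114 CPM at LD0, 373 ± 577 at LD1 and 269 ± 308 at LD3 (SD, n = 3 each). The log2 fold change was 1.07 (SE 0.79; edgeR adjusted p 0.835) for LD1 against LD0, where 2 of 3 letters were higher. It was 1.44 (SE 0.78; edgeR adjusted p 0.698) for LD3 against LD0, where 3 of 3 letters were higher, and 0.38 (SE 0.75; edgeR adjusted p 0.985) for LD3 against LD1. The LD1 value was 0.26 without LD1 C, 0.63 without LD0 C, 0.09 in libraries A and B alone and 1.97 without LD0 A. Without LD0 A the LD3 value was 2.44.

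The same fit gave each gene a term for library preparation, the difference of C from A and B at equal time point, which was examined after the values had been seen. For ARR7 that term was 3.46 on the log2 scale (SE 0.64), with an unadjusted p of 1.80e-04 and an edgeR adjusted p of 0.0316. ARR7 alone of the 7 tested genes passed, where 0.839% of all genes did. CKX3 had 3.22 (SE 1.08; edgeR adjusted p 0.146), ARR6 2.35 (SE 0.99; edgeR adjusted p 0.238) and ARR9 2.09 (SE 1.74; edgeR adjusted p 0.576). The remaining genes, ARR4 at 0.10, AHK4 at 0.21 and LOG7 at 0.09, were near 0.

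In CPM, ARR6, ARR7 and CKX3 were highest in the C library at all 3 time points, as were 11.8% of all tested genes. The C libraries also had the highest totals at each time point, so preparation and depth cannot be told apart at LD0 and LD3. At LD1 the totals were nearly equal, 714559 reads in C and 711363 in B, with ARR7 at 1039 and 56.0 CPM. Per the file headers, all columns of the B libraries were matched with the older BLASTN release. All columns of the C libraries but read 2 of LD3 C were matched with the newer. The A libraries held both kinds. The parts of preparation, depth and matching release were not tested apart. For ARR7 the preparation difference was larger than either fitted difference from LD0. Read 2 supplied 46.6% of its reads in LD0 C, 52.0% in LD1 C and 48.5% in LD3 C, close to the library shares of 48.7%, 52.2% and 49.4%.

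**Figure D4:**
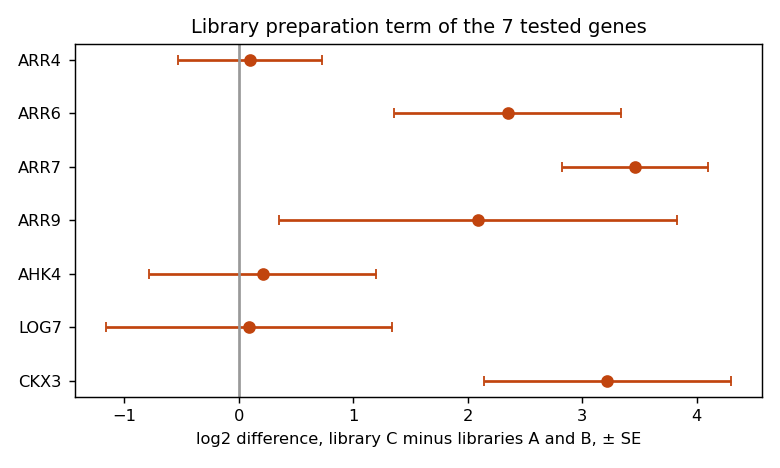
Fitted log2 difference ± SE between the ready-to-run libraries C and the shotgun libraries A and B (horizontal axis) for the 7 tested genes. ARR7 at 3.46 is the gene that passed the adjusted threshold, CKX3 and ARR6 follow at 3.22 and 2.35, and ARR4, AHK4 and LOG7 lie near 0.

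ARR9, a type-A response regulator gene, had 110, 8.75 and 10.8 CPM at LD0, 0, 31.1 and 803 CPM at LD1, and 15, 36.7 and 42.3 CPM at LD3. Its reads were 13, 1 and 19, then 0, 20 and 377, then 2, 56 and 396. LD1 C held nearly all of the LD1 signal while LD1 A held no read, and LD0 A was the high library at LD0. The fitted values had wide errors. LD1 against LD0 stood at 1.02 (SE 2.04; edgeR adjusted p 0.951), and LD3 stood at −0.82 (SE 1.56; edgeR adjusted p 0.947) against LD0 and −1.85 (SE 1.85; edgeR adjusted p 0.973) against LD1. Leaving out LD1 C turned the LD1 difference to −1.34, and leaving out LD0 A turned the LD3 difference to 2.94. The direction of ARR9 thus rested on single libraries. In LD1 C read 2 supplied 41.9% of its reads (95% Wilson interval 37.0 to 46.9%), below the library's 52.2%, and 99.6% of well-covered loci were at or above that share.

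ARR6, another rapidly induced type-A gene, had 0, 17.5 and 85.5 CPM at LD0, 12.6, 9.33 and 80.9 at LD1, and 15, 11.2 and 19.5 at LD3. The C libraries were high at LD0 and LD1 and not set apart at LD3. Means were 34.3 ± 45.1, 34.3 ± 40.4 and 15.2 ± 4.19 CPM (SD, n = 3 each). The fitted difference was 0.00 (SE 1.32) for LD1 against LD0 and −0.50 for both LD3 comparisons (SE 1.27 against LD0 and 1.21 against LD1), with edgeR adjusted p of 1.00, 0.966 and 0.987.

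ARR5 and ARR15 were not tested, for want of reads. ARR5, whose promoter is widely used as a cytokinin reporter, had 0, 1 and 42 reads at LD0, 0, 5 and 3 at LD1, and 0, 27 and 85 at LD3. None of the A libraries held an ARR5 read, and their floors of 25.3, 19.0 and 22.5 CPM were of the size of the highest ARR5 level, 23.9 CPM in LD0 C. The pooled reads gave ARR5 a ratio of 0.287 (95% exact counting interval 0.117 to 0.618) for LD1 over LD0, 0.497 (0.347 to 0.724) for LD3 over LD0 and 1.73 (0.848 to 4.11) for LD3 over LD1. LD0 C supplied 42 of the 43 LD0 reads, so the first pair of ratios compares this library with the long-day libraries. Fitted without a filter, ARR5 had log2 fold changes of −0.99 (SE 1.89), −0.06 (SE 1.93) and 0.94 (SE 1.74), each smaller than its error.

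ARR15, like ARR7 a type-A gene linked to meristem size control, had 0, 1 and 29 reads at LD0, 0, 18 and 0 at LD1, and 0, 18 and 293 at LD3. LD1 C, at a floor of 6.39 CPM, held no read, although LD1 B at nearly the same total held 18, or 28.0 CPM. Pooled reads gave ARR15 a ratio of 0.926 (95% exact counting interval 0.486 to 1.72) for LD1 over LD0 and 1.98 (1.36 to 2.98) for LD3 over LD0. The fit without a filter gave ARR15 0.62 (SE 1.96), 0.61 (SE 1.70) and −0.01 (SE 1.32), with errors far wider than the counting intervals.

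The 6 type-A genes together summed to 220, 131 and 407 CPM at LD0, 120, 310 and 2223 at LD1, and 293, 295 and 829 at LD3. The groups overlapped, and the C library was highest at each time point. ARR7 supplied 6.67 to 35.9% of the type-A reads in the A and B libraries and 46.7 to 75.3% in the C libraries. The tested genes outside the pathway whose log2 CPM followed this sum most closely over the 9 libraries were MAN2 (AT2G20680, Pearson r = 0.973), RPT6A (AT5G19990, r = 0.971) and TES (AT3G43210, r = 0.964). These correlations describe 9 libraries of unequal depth, of which the C libraries share their preparation.

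LOG7, one of the LOG enzyme genes known to act in the meristem, had 0, 1 and 39 reads at LD0, 4, 11 and 3 at LD1, and 0, 11 and 35 at LD3. In CPM this was 0, 8.75 and 22.2, then 25.3, 17.1 and 6.39, then 0, 7.22 and 3.74. The LD3 value was lower than the LD0 value in B and C, and both A libraries were at 0 there. The fitted log2 fold change of LOG7 from LD0 to LD1 was 0.36 (SE 1.44; edgeR adjusted p 0.980). LD3 stood at −1.45 (SE 1.40; edgeR adjusted p 0.871) against LD0 and −1.81 (SE 1.32; edgeR adjusted p 0.973) against LD1. The last of these was negative in 3 of 3 letters and in 11 of 11 alternative settings that tested the gene, from −2.10 to −1.40. Among the settings whose filter dropped LOG7 were libraries A and B alone and leaving out LD0 C, LD1 B, LD1 C, LD3 B or LD3 C. The sign was therefore not examined without those libraries.

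LOG4, the other LOG gene, is known from the outer layer of the meristem. It had 3 reads in LD0 C, 2 in LD1 C, 1 in LD3 B and none in the remaining 6 libraries. LD3 C, the deepest library with a floor of 0.320 CPM, held none. No difference between time points was detectable at this depth.

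A wider list of 73 cytokinin pathway genes, from receptors to transporters, was described in the same fit. Of these, 61 had reads in the table and 21 were tested, 7 of them described above. None passed the adjusted threshold in a pairwise comparison, by edgeR. At an unadjusted p under 0.05, 2 were higher in LD1 than in LD0 and 1 higher in LD3 than in LD0, which are ARR4 and CKX3 again. By that criterion 3.28% of all 9300 tested genes were higher in LD1 and 2.69% higher in LD3. The median log2 fold change of the 21 genes was 0.50 at LD1 and 0.08 at LD3 relative to LD0, and −0.28 from LD1 to LD3. Outside the 10 genes, 37 measured genes were left untested, with 1 to 195 reads in total.

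Further genes of the list are named here after their values were seen. The 4 tested type-B response regulator genes had log2 fold changes with a median of 0.48 for LD1 and 1.02 for LD3 against LD0, 3 being positive in each. ARR12, which encodes a main type-B activator of cytokinin responses, was at 2.63 (SE 1.44; edgeR adjusted p 0.805) and 2.18 (SE 1.46; edgeR adjusted p 0.784). Its LD0 reads were 0, 2 and 4. ARR14, the gene negative in each, was at −2.64 (SE 1.73; edgeR adjusted p 0.831) and −1.76 (SE 1.52; edgeR adjusted p 0.846), with LD0 reads of 1, 2 and 112. The 3 tested phosphotransfer genes had medians of 0.51 and 0.08. Among them was AHP6, the pseudo-phosphotransfer protein that inhibits signalling, at 0.51 (SE 1.00) and 0.08 (SE 1.00). AHK3, the other tested receptor gene, had 0.08 (SE 1.68) and −1.67 (SE 1.55). CKX5, the second CKX gene tested, had −0.66 (SE 1.34) and −0.05 (SE 1.26), beside 3.56 and 4.75 for CKX3, and the difference between these CKX genes was not tested.

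IPT2, a tRNA-type isopentenyltransferase gene of cytokinin synthesis, was the gene outside the 10 with an unadjusted p under 0.05. It was at 3.14 (SE 1.33) for LD3 against LD1, with an unadjusted p of 0.0371 and an edgeR adjusted p of 0.973. In that comparison 4.08% of all tested genes had an unadjusted p under 0.05 in either direction. Its reads were 0, 4 and 3 at LD1 and 3, 19 and 1388 at LD3. LD3 C at 148 CPM set it apart, with LD3 A at 22.5 CPM and LD3 B at 12.5 CPM above the highest LD1 value of 6.39 CPM. Of all tested genes, 7.42% had all LD3 libraries above all LD1 libraries. CRF2, a cytokinin response factor gene of the same list, had 166 of its 222 reads in LD1 C. In CPM, ARR4, ARR7, ARR9 and AHK4 were also highest in that library. It held reads of 9909 loci against 15315 in LD1 B, and the part of this in these values was not tested.

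**Figure D5:**
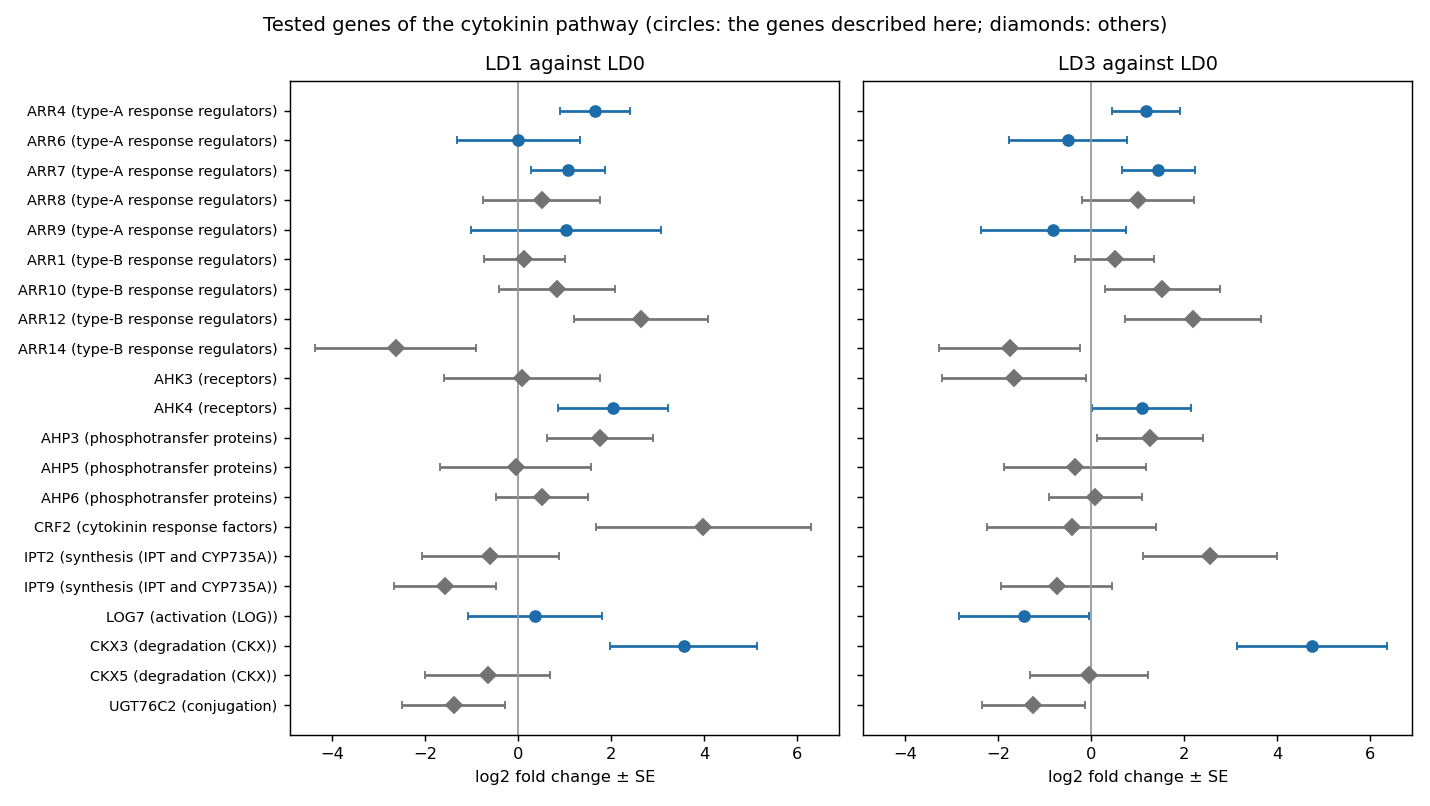
Fitted log2 fold changes ± SE (horizontal axes) of the 21 tested cytokinin pathway genes for LD1 and LD3 against LD0, by class, with circles for the genes described in full and diamonds for the others. CKX3 lies farthest right in LD3 against LD0 at 4.75, CRF2 farthest right in LD1 against LD0 at 3.98 with a wide error, and CKX5 stays near 0.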

How the data were processed

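The authors deposited read counts per locus for 9 libraries in 16 columns. The file headers show separate columns for reads 1 and 2 in 7 libraries. They name BLASTN 2.2.21 as the matching tool of 7 columns and release 2.2.13 for the other 9. Which genome build and match filters were used, and how strand and multiple matches were handled, is not given in the sources. No coordinates or sequences are therefore printed, and overlapping or near-identical genes may share reads. Empty cells, 49.0% of the deposited counts, were read as 0. Columns of a library were summed, so a fragment can count in both. The authors also deposited tables of log2 fold changes and unadjusted p-values per locus, for which the submitters' processing notes name edgeR, and these are quoted only where named. Locus identifiers were matched to RefSeq TAIR10.1 for symbols only, 23073 of 23338.

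The summed counts of all 9 libraries went into a quasi-likelihood F test (edgeR 4.0.16, R 4.3.3) with TMM scaling, filterByExpr at a minimum count of 10, and additive terms for time point and preparation. This kept 9300 genes and left 5 residual degrees of freedom, at a common BCV (biological coefficient of variation) of 0.898. Adjusted p-values are Benjamini-Hochberg values over all tested genes, with a threshold of 0.05. Alternatives were RLE and upper-quartile scaling, no filter, a minimum count of 30, no preparation term, the letters as a block, DESeq2 1.42.0, limma-voom (limma 3.58.1), libraries A and B alone, a single read column per library, and leaving out each library. The test was also run on simulated data. Wilson and exact intervals (scipy 1.17.1) cover counting error only.

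Same-letter libraries deviated together in 8 of 9 pairs with a correlation over 0.1. For LD0 with LD1 the values were 0.073, 0.147 and 0.111 for A, B and C, for LD0 with LD3 0.106, 0.178 and 0.22, and for LD1 with LD3 0.166, 0.352 and 0.304. By a rule that asks for a correlation over 0.1 in every pair, the letters count as pairs for the LD3 comparisons and, through the 0.073 of A, not for LD1 against LD0. The main fit does not pair the letters. With the letters as a block, CKX3 in LD3 against LD0 was at 4.74 (edgeR unadjusted p 0.0160, adjusted p 0.434). The other log2 fold changes there were ARR7 1.55, ARR4 1.22, AHK4 1.10, ARR9 −0.39, ARR6 −0.48 and LOG7 −1.55. The labels tie a letter to a preparation at all 3 time points and say nothing more of what it shares.

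The 10 genes and all lists were chosen with earlier results of these data known. Named by rule were all 10 genes, genes of the pathway list with an unadjusted p under 0.05, and the 3 tested genes outside the list that followed the summed type-A CPM most closely. ARR12, ARR14, AHP6, AHK3, CKX5 and CRF2 fall outside that rule and were named after their values were seen.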

Additional observations from a re-analysis of the deposited data

How the results depend on the processing

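Over 19 alternative settings, 21 fitted changes of the 7 tested genes gave 348 values, of which 23 changed sign and 1 passed the adjusted threshold (CKX3, LD3 against LD0, limma-voom). For 11 of the 21 changes, among them CKX3 in each comparison and ARR4, ARR7 and AHK4 against LD0, no setting turned the sign. Settings whose filter dropped a gene gave no value for it, among them a single read column and libraries A and B alone for CKX3. The cause of the differences between settings was not tested. The replicate block gave 0, 2 and 0 genes called in LD1 against LD0, LD3 against LD0 and LD3 against LD1, and 2 in the joint test, and it moved no cytokinin gene past the adjusted threshold. Against the 0, 0 and 0 calls and 1 joint call, DESeq2 gave 30, 296, 6 and 36 genes, limma-voom gave 508 in LD3 against LD0 and 65 jointly, and no filter gave 107, 367, 186 and 433. Upper-quartile scaling gave 1 in LD3 against LD0, RLE scaling and a minimum count of 30 gave 2 jointly, and a single read column per library and libraries A and B alone gave 0 jointly. Without each library in turn the counts ran from 0 to 1 for LD3 against LD0 and from 0 to 2 for the joint test.

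Signs turned both with other fits or scalings and on leaving out libraries. ARR6 in LD1 against LD0 was at 0.04 under the replicate block and 0.03 with upper-quartile scaling, and LOG7 at −0.21 with limma-voom. ARR9 in LD3 against LD0 was at 1.5 with limma-voom. In LD3 against LD1, ARR4 was at 0.12 in libraries A and B alone, and ARR7 at −0.32 with limma-voom and −0.46 without the preparation term. Leaving out each library in turn gave, for LD1 against LD0, ARR6 from −0.48 to 0.36, ARR9 from −1.34 to 4.26 and LOG7 from −0.33 to 0.36. For LD3 against LD0 it gave ARR6 from −1.13 to 0.40 and ARR9 from −2.02 to 2.94. For LD3 against LD1 it gave ARR4 from −0.87 to 0.22, ARR6 from −0.76 to 0.30, ARR7 from −0.03 to 1.16, ARR9 from −3.21 to 1.26 and AHK4 from −1.65 to 0.74.

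Depth limits these genes most in the A libraries, where a single read is worth 6.32 to 8.45 CPM, and in LD0 B, where it is worth 8.75 CPM.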
